A study of Homo sapiens with 6 samples.

Results

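Bone morphogenetic proteins (BMPs) and their ID target genes were followed, as 10 genes, with and without induced GLI2 in YAPC, a cell line from a human pancreatic cancer. The genes were chosen by name, as 3 ligands (BMP2, BMP4, BMP7), 2 receptors (BMPR1A, BMPR2), the inhibitory SMAD6 and the 4 ID genes (ID1, ID2, ID3, ID4), and all 10 were found among the 25442 genes kept from the table. The names were chosen with earlier results of these data known. The 6 RNA-seq libraries came from cells grown for 6 days in doxycycline (Dox). In 3 of them (iGLI2) the cells carried pRetroX-Tight-Puro with a GLI2 insert and in the other 3 (iEV) the same plasmid with no insert, so that Dox and the vector were shared by both groups. The study describes the GLI2 cDNA as a Flag-tagged human sequence under the Dox-inducible promoter of the vector, and counts YAPC among the cell lines of the classical subtype of this cancer. The study speaks of independent biological replicates for its experiments in general, but no label gives separate cultures for these libraries. If they were not separate, p-values measure only the spread between libraries, which may be technical. Values of single libraries are listed as replicates 1, 2 and 3.

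BMP ligands bind pairs of type I and type II receptor kinases at the cell surface, which phosphorylate SMAD1, SMAD5 and SMAD9. These bind SMAD4, enter the nucleus and switch on target genes, of which the ID genes are the best known. ID proteins hold a helix-loop-helix but no DNA-binding region, and they pair with E proteins (TCF3, TCF4, TCF12) and keep them off DNA. SMAD6 is itself a BMP target and blocks the pathway at the receptor. In epithelial cells the pathway is known for its part in differentiation and in the transition to a mesenchymal state.

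GLI2, a transcription factor at the end of the Hedgehog pathway, was between 0.344 and 0.466 FPKM in the iEV libraries and was 94.5, 207 and 195 FPKM in iGLI2 replicates 1, 2 and 3, as the library names give it, and reads of the insert and of the cell's own gene cannot be told apart. FPKM is the number of sequenced fragments scaled to transcript length and library size, so levels can be compared between genes. Total FPKM was 981341 to 1082684 in iEV and 803145 to 889555 in iGLI2 libraries, of which the single entry MIR4461 took 42.6 to 45.4% and 35.7 to 37.7%. The number of reads behind a value is unknown. Of the epithelial markers, KRT19 was 577 to 682 FPKM in iEV and 521 to 578 FPKM in iGLI2 libraries. It was lower on average (log2 fold change -0.18), with groups that overlapped slightly, and was not called. EPCAM was 396 to 418 FPKM in iEV and 521 to 526 FPKM in iGLI2 libraries. CDH1 was 51.0 to 56.3 FPKM in iEV and 64.8 to 72.5 FPKM in iGLI2 libraries. EPCAM and CDH1 were called as higher, but CDH1 did not keep its call with every single library left out. For protein, the study reports lower E-Cadherin (CDH1) in YAPC cells stably expressing GLI2. For RNA-seq after 6 days of Dox, it reports enrichment of a gene set of the epithelial to mesenchymal transition in iGLI2 cells. It also reports higher RNA of markers of this transition at an earlier time in Dox. KRT8 and KRT18 were listed at 0 in every library, so a 0 in this table was not read as absence. Among fibroblast markers DCN was listed at 0 throughout and LUM, COL1A2 and PDGFRB did not exceed 0.0335 FPKM, while COL1A1 was 1.29 to 1.54 FPKM in iEV and 2.28 to 2.98 FPKM in iGLI2 libraries and was called as higher. The part of these marker differences in the results was not tested. In such bulk libraries fewer cells of a type and less RNA per cell cannot be told apart.

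Of the 10 genes, 8 averaged 1 FPKM or more and could be tested, and 3 of these 8 differed between iGLI2 and iEV cells. BMP2, BMP4 and ID1 were lower in iGLI2 cells, and no member was higher at an adjusted p under 0.05 in limma, a linear model with moderated variances run on log2(FPKM + 1) and adjusted over all 12493 genes tested by the Benjamini-Hochberg method. At an unadjusted p under 0.05, 2 members were higher, BMPR1A and ID2. Over all genes tested, 21.9% were called, 10.1% as higher and 11.8% as lower, so 3 of 8 lower stands beside a background of 11.8%. As the list was chosen with earlier results known, the 2 shares are given as a description only. The share of all called genes that were higher was 46.0%, and 59.6% once the small RNA genes were left out and the libraries rescaled. The median log2 fold change was -0.31 over the 8 members and -0.015 over all genes tested. The groups did not overlap for 6 of the 8 members, 4 with iGLI2 below and 2 above, where 42.0% of all genes tested did not overlap. With 3 libraries a group, 0.1 is the smallest two-sided p an exact permutation test can reach, and calls therefore come from limma.

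**Figure D1:**
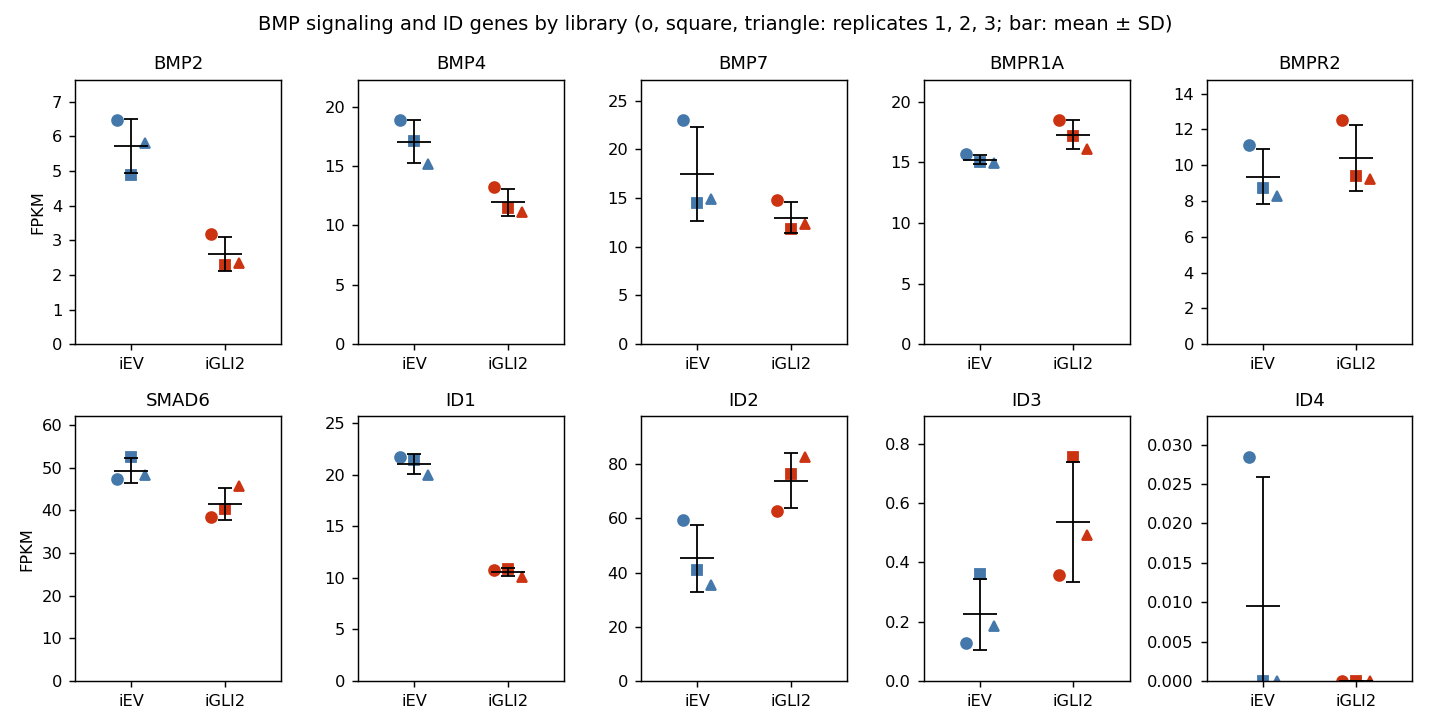
Level of each of the 10 genes in FPKM (vertical axis, from 0, its own scale in each panel) in the iEV (blue) and iGLI2 (red) libraries, with circles, squares and triangles for replicates 1, 2 and 3 and the bar giving mean ± SD. For ID1 the iGLI2 points lie at 10.1 to 10.8 FPKM and the iEV points at 19.9 to 21.8 FPKM, and for ID4 a single library has a value above 0.

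BMP2 had the largest fold difference of the 3 ligands and fell in iGLI2 cells. Its level was 6.47, 4.89 and 5.80 FPKM in the iEV libraries against 3.18, 2.27 and 2.35 FPKM in the iGLI2 libraries. Every iGLI2 library was thus below every iEV library. The mean was 5.72 ± 0.792 FPKM (SD, n = 3) in iEV and 2.60 ± 0.499 FPKM (SD, n = 3) in iGLI2 cells, a ratio of 0.455. In limma the fitted difference was -0.90 on the log2 scale (SE 0.13, adjusted p = 0.00711). In hg19, BMP2 spans 6748745 to 6760910 of chromosome 20. Its adjusted p did not exceed 0.0398 when any 1 library was dropped.

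BMP4, a ligand close in sequence to BMP2, was present at a higher level. It had 18.9, 17.1 and 15.2 FPKM in the iEV libraries against 13.3, 11.5 and 11.2 FPKM in the iGLI2 libraries. The groups did not overlap, but the gap between iEV replicate 3 and iGLI2 replicate 1 was smaller than the range within either group. Its ratio of means was 0.702, and the log2 fold change of -0.48 (SE 0.10) had an adjusted p of 0.0239 in limma. This call was lost when iEV replicate 1 (adjusted p = 0.0597), iEV replicate 2 (0.0930), iGLI2 replicate 2 (0.0939) or iGLI2 replicate 3 (0.0867) was left out, and also with small RNA genes left out and libraries rescaled (0.0565). BMP4 lies on chromosome 14 from 54416455 to 54423554, where a long noncoding RNA gene of the annotation overlaps it on the opposite strand. The counting is not stated to use strand, so reads from the pair cannot be told apart.

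BMP7, a ligand of another branch of the family, did not pass the test. It was 22.99, 14.4 and 14.9 FPKM in the iEV libraries against 14.8, 11.8 and 12.3 FPKM in the iGLI2 libraries. The ranges overlapped, and iEV replicate 1 stood well above the other iEV libraries. The log2 fold change was -0.38 with a 95% interval from -0.84 to 0.086 (limma adjusted p = 0.215), and it was -0.17 without iEV replicate 1. BMP7 lies on chromosome 20 from 55743809 to 55841707, with the antisense gene BMP7-AS1 inside it.

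Summed within each library, the 3 ligands came to 48.3, 36.4 and 35.9 FPKM in the iEV libraries against 31.2, 25.6 and 25.9 FPKM in the iGLI2 libraries. The iGLI2 sums were all below the iEV sums, with a ratio of means of 0.685 (two-sided exact permutation p = 0.1, the smallest that 3 against 3 can give). BMP2 made up 14.3% ± 1.58 (SD, n = 3) of this sum in iEV and 9.39% ± 0.682 (SD, n = 3) in iGLI2 libraries, again with no overlap. These sums and shares, and the ratios of ID genes that follow, were chosen after the values were seen.

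The receptors of the list showed no called change. BMPR1A encodes a type I receptor of BMP2 and BMP4, and had 15.7, 15.1 and 14.9 FPKM in the iEV libraries against 18.5, 17.2 and 16.1 FPKM in the iGLI2 libraries. The iGLI2 values were all higher, by a log2 fold change of 0.17 with a 95% interval from 0.0036 to 0.33 (limma adjusted p = 0.134). The annotation lists 2 processed pseudogenes of BMPR1A, and how reads that match several places were treated is not stated. BMPR2, the type II receptor of the family, had 11.1, 8.71 and 8.29 FPKM in the iEV libraries against 12.5, 9.42 and 9.24 FPKM in the iGLI2 libraries. Its groups overlapped, and replicate 1 was the highest library in both. The log2 fold change was 0.13 with a 95% interval from -0.24 to 0.50 (limma adjusted p = 0.570). BMPR1A lies on chromosome 10 from 88516396 to 88684945 and BMPR2 on chromosome 2 from 203241050 to 203432474.

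SMAD6, the feedback inhibitor, had the highest mean of the 10 genes in iEV cells, with a range that overlapped that of ID2. It had 47.2, 52.5 and 48.2 FPKM in the iEV libraries against 38.4, 40.3 and 45.7 FPKM in the iGLI2 libraries. The iGLI2 libraries were all lower, with the third close to the iEV range. The log2 fold change of -0.25 had a 95% interval from -0.46 to -0.037 and an adjusted p of 0.0951 in limma, which did not pass. SMAD6 lies on chromosome 15 from 66994674 to 67074337.

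**Figure D2:**
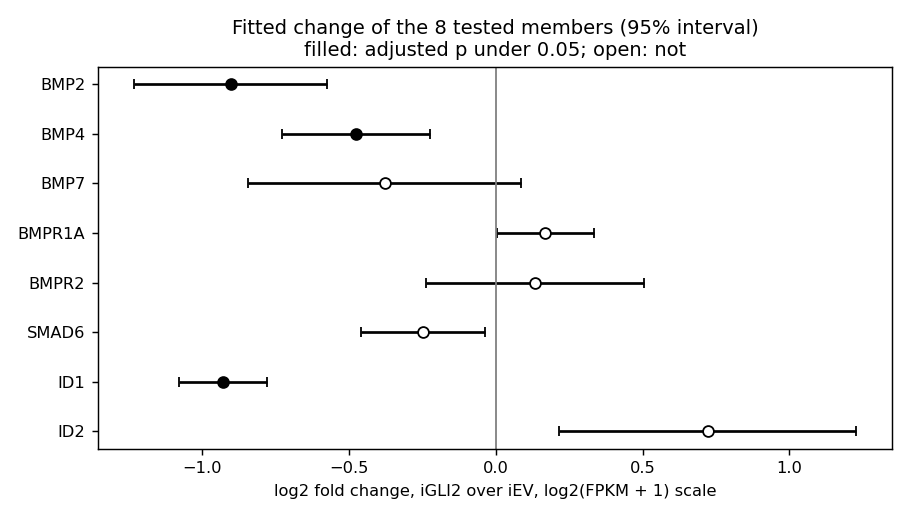
Fitted log2 fold change of iGLI2 over iEV (horizontal axis, log2(FPKM + 1) scale) for the 8 members tested, with 95% intervals, filled where the adjusted p was under 0.05. BMP2, BMP4 and ID1 are filled and lie at -0.90, -0.48 and -0.93, and ID2 lies open at 0.72 with an interval from 0.22 to 1.23.

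ID1 had the smallest p of the members. Its level was 21.8, 21.4 and 19.9 FPKM in the iEV libraries against 10.8, 10.8 and 10.1 FPKM in the iGLI2 libraries. The replicates lay close together in both groups, and the gap between the groups was several times the range within either. The mean was 21.0 ± 0.967 FPKM (SD, n = 3) without and 10.6 ± 0.389 FPKM (SD, n = 3) with GLI2, a ratio of 0.503. On the log2 scale the fitted change was -0.93 (SE 0.061, limma adjusted p = 5.30e-04). Dropping any 1 library left it between -0.97 and -0.90. ID1 lies on chromosome 20 from 30193086 to 30194317.

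The difference of ID2 had the opposite sign and did not pass the test. It was 59.3, 40.9 and 35.4 FPKM in the iEV libraries against 62.8, 76.3 and 82.7 FPKM in the iGLI2 libraries. The iGLI2 libraries were all higher, but iEV replicate 1 and iGLI2 replicate 1 lay close together. Its fitted log2 change of 0.72 (SE 0.21) had an adjusted p of 0.0557 in limma. The adjusted p was 0.0179 without iEV replicate 1, and between 0.0239 and 0.0499 in 4 other settings, upper quartile scaling, quantile normalization, small RNA genes left out with libraries rescaled, and robust moderation. It reached 0.172 without iEV replicate 2. ID2 lies on chromosome 2 from 8822113 to 8824583, and a processed pseudogene, ID2B, lies on chromosome 3.

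ID3 and ID4 were the lowest of the 10 genes, both below 1 FPKM in every library. ID3 had 0.127, 0.360 and 0.187 FPKM in the iEV libraries against 0.359, 0.757 and 0.492 FPKM in the iGLI2 libraries. The groups overlapped slightly, and ID3 was below the minimum for the test (two-sided exact permutation p = 0.2). ID4 was listed at 0.0285 FPKM in iEV replicate 1 and at 0 in the 5 other libraries, so no fold is given. ID3 lies on chromosome 1 from 23884421 to 23886285 and ID4 on chromosome 6 from 19837601 to 19842431.

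The levels of ID1 and ID2 can also be set against each other within each library, where scaling between libraries has no part. The ratio of ID2 to ID1 was 2.73, 1.91 and 1.78 in the iEV libraries against 5.84, 7.04 and 8.17 in the iGLI2 libraries. The lowest iGLI2 ratio was more than the highest iEV ratio (two-sided exact permutation p = 0.1, the smallest possible). On the log2 scale the mean difference was 1.73, and 1.61 to 1.92 with each library left out. ID1 thus made up 32.3% ± 4.83 of the summed FPKM of the 4 ID genes in iEV and 12.6% ± 1.86 in iGLI2 libraries (SD, n = 3 each). The sum itself was 66.5 ± 13.2 FPKM in iEV and 85.1 ± 10.01 FPKM in iGLI2 libraries (SD, n = 3 each), with overlapping values (two-sided exact permutation p = 0.2).

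**Figure D3:**
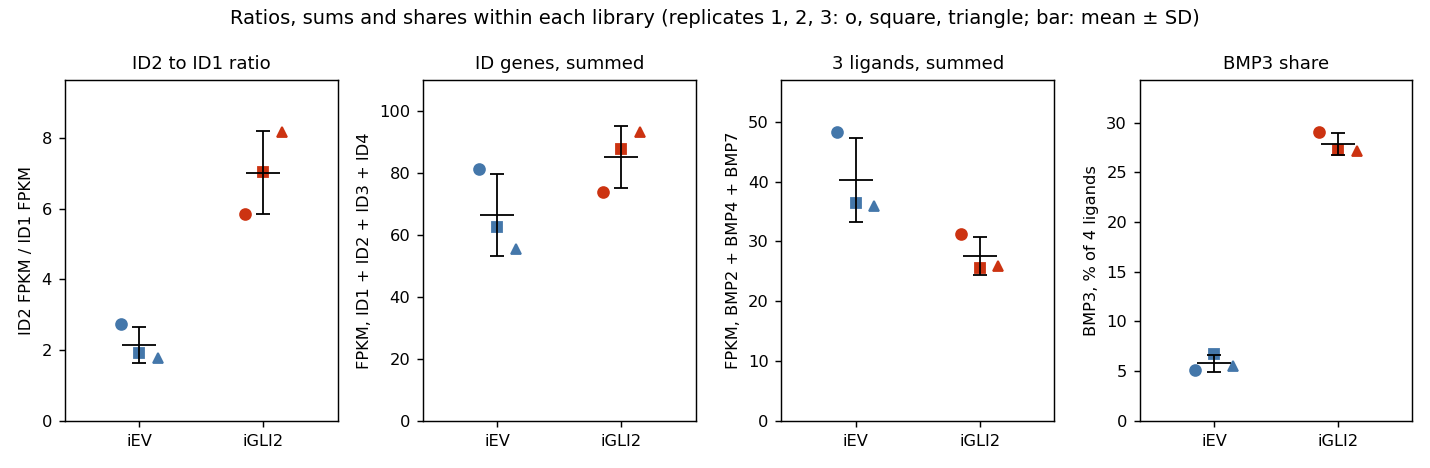
Ratio of ID2 to ID1, summed FPKM of the 4 ID genes, summed FPKM of BMP2, BMP4 and BMP7, and the percent of BMP3 in the sum of BMP2, BMP3, BMP4 and BMP7, each computed within a library and plotted from 0 for iEV (blue) and iGLI2 (red) with mean ± SD. The ID2 to ID1 ratio is 1.78 to 2.73 in iEV and 5.84 to 8.17 in iGLI2 libraries, while the ID sums of the groups overlap.

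The order of levels was not the same in both groups. In iEV cells it ran SMAD6, ID2, ID1, BMP7, BMP4, BMPR1A, BMPR2, BMP2, ID3 and ID4, and the ranges overlapped between SMAD6 and ID2 and between each pair of neighbours from ID1 to BMPR1A. In iGLI2 cells ID2 was first at 74.0 ± 10.2 FPKM (SD, n = 3) with no overlap with SMAD6 at 41.4 ± 3.78 FPKM (SD, n = 3), and ID1 was sixth, overlapping with BMPR2 only.

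Sequence upstream of the genes was searched for the words that SMAD complexes of this pathway are known to bind, GGCGCC and the SMAD box GTCTG, whose other strand reads CAGAC, in the 2000 bases before the start of the MANE Select transcript in hg19, on both strands. GGCGCC, which reads the same on both strands, was found in 6 of the 10 genes, against 46.7% of 18918 protein-coding genes, and the SMAD box in 10 of 10, against 96.8%. The 9-base GLI consensus GACCACCCA, whose other strand reads TGGGTGGTC, was found in 0 of 10, against 1.68% of all genes. These matches describe the letters in the window and were not read as binding. GGCGCC and a SMAD box can share an end base, and did not in the stretches shown. The stretch of ID1, the member with the smallest p, is shown because its GGCGCC starts 965 bases before the transcript start among 4 SMAD boxes. No share over all genes was counted for such a loose stretch, and it is not particular to ID1. In SMAD6, for example, a GGCGCC starts 1257 and a SMAD box 1347 bases before the transcript start. The stretch of ID1 covers chr20:30192041-30192234 on the plus strand, 1051 to 858 bases before the start, with each word in capitals.
ID1: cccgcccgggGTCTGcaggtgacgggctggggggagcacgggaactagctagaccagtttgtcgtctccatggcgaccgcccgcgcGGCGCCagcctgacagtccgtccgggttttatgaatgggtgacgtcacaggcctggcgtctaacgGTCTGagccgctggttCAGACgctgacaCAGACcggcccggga

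A closer pair, with both words inside 50 bases, was present in 3 of the 10 genes (BMPR1A, BMPR2, ID2) and in 7.94% of all genes. None of the 3 genes that fell, BMP2, BMP4 and ID1, was among them. The pair of ID2 is shown for comparison with the looser stretch of ID1, whose difference had the opposite sign, and 1 of the pairs of BMPR2 as a gene with no called change. The first covers chr2:8821768-8821802, 418 to 384 bases before the start, and the second chr2:203239901-203239941, 1149 to 1109 bases before the start, both on the plus strand with the words in capitals.
ID2: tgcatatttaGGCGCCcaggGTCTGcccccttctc
BMPR2: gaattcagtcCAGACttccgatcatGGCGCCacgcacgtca

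Beyond the 10 members, 62 other genes of the pathway were followed, of which 33 entered the test. Of these, 7 were higher, 2 were lower and 24 did not pass, so 27.3% were called beside 21.9% of all genes tested. The 7 include SOSTDC1, which met the minimum only through its iGLI2 level. This list too was chosen with earlier results of these data known. Their median log2 fold change was 0.18. The calls are given here by role, with 2 to 7 genes tested in each, too few to set a role apart from the 21.9%. The share called was 50% of ligands, 42.9% of secreted or membrane inhibitors and 33.3% of intracellular regulators. It was 33.3% of E proteins, 20% of target genes, 16.7% of receptors and co-receptors and 0% of SMAD genes.

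Among the 11 other ligands only BMP3 and BMP8B entered the test. BMP3, which unlike its relatives is known to oppose BMP signaling, rose, at 2.60, 2.65 and 2.08 FPKM in the iEV libraries against 12.8, 9.56 and 9.61 FPKM in the iGLI2 libraries. All iGLI2 values were well above all iEV values, a fitted log2 change of 1.75 (SE 0.13, limma adjusted p = 7.69e-04). BMP3 made up 5.79% ± 0.877 of the summed FPKM of BMP2, BMP3, BMP4 and BMP7 in iEV and 27.8% ± 1.10 in iGLI2 libraries (SD, n = 3 each). With BMP8B added to the sum the shares were 5.39% ± 0.780 in iEV and 26.0% ± 1.47 in iGLI2 libraries (SD, n = 3 each). These shares too were chosen after the values were seen, with BMP3 picked as the ligand that rose.

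Of 19 secreted or membrane inhibitors, 7 were tested, and 2 were higher and 1 lower. BAMBI, a receptor-like membrane protein without a kinase that blocks type I receptors, had 5.53, 4.69 and 4.70 FPKM in the iEV libraries against 15.2, 19.8 and 20.6 FPKM in the iGLI2 libraries. The groups lay far apart, 1.70 apart on the log2 scale (SE 0.13, limma adjusted p = 7.59e-04). SOSTDC1, a secreted BMP antagonist, rose from 0.860, 0.974 and 0.989 FPKM to 2.104, 2.95 and 3.35 FPKM in replicates 1, 2 and 3 (log2 fold change 0.96, limma adjusted p = 0.00674). Its iEV values were all below the minimum of 1 FPKM, so SOSTDC1 entered the test only through its iGLI2 level. The entry that merges NBL1, another antagonist, with MINOS1 and their readthrough gene was lower, at 36.6, 39.4 and 37.9 FPKM in the iEV libraries against 28.0, 27.4 and 24.6 FPKM in the iGLI2 libraries, a change of -0.50 on the log2 scale with an adjusted p of 0.00615 in limma. It cannot be assigned to either gene. TWSG1, the inhibitor with the highest level, averaged 47.3 ± 4.63 FPKM (SD, n = 3) in iEV against 56.9 ± 8.22 FPKM (SD, n = 3) in iGLI2 cells and did not pass (limma adjusted p = 0.199).

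Among the receptors and co-receptors, 1 of 6 tested was called. RGMA, a membrane-anchored co-receptor of BMPs, rose, at 2.66, 1.46 and 1.65 FPKM in the iEV libraries against 5.11, 5.22 and 5.43 FPKM in the iGLI2 libraries (log2 change 1.12, SE 0.16, limma adjusted p = 0.00558). ACVR1, a type I receptor and the most abundant of this group, had a log2 fold change of 0.12 with a 95% interval from -0.21 to 0.45 (limma adjusted p = 0.570). In limma 0 of the 4 other SMAD genes tested were called, and 1 (SMAD1, lower) had an unadjusted p under 0.05 and passed without iEV replicate 1 (adjusted p = 0.0441). SMAD5, the most abundant of them, had a log2 fold change of 0.18 with a 95% interval from -0.21 to 0.57 (limma adjusted p = 0.464).

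Of 6 intracellular regulators, 2 were higher and 4 did not pass. SKIL, a corepressor that binds SMADs, rose from 8.94 ± 0.445 to 14.9 ± 1.29 FPKM (SD, n = 3 each; log2 fold change 0.68, limma adjusted p = 0.00297). SMURF2, a ubiquitin ligase of SMADs and receptors, rose from 22.6 ± 0.575 to 31.2 ± 2.03 FPKM (SD, n = 3 each; log2 fold change 0.45, limma adjusted p = 0.00726). The entry that merges FKBP1A, which holds type I receptors inactive, with SDCBP2 had an adjusted p of 0.122 in limma. Both called regulators act in TGF-beta signaling as well.

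Of the 9 other genes listed as BMP targets, 5 were tested and UNC5B alone was called. UNC5B, a netrin receptor, rose, at 2.54, 1.90 and 1.82 FPKM in the iEV libraries against 18.5, 20.5 and 20.7 FPKM in the iGLI2 libraries. The fitted change of 2.77 (log2 scale, SE 0.11, limma adjusted p = 1.32e-04) was in the direction opposite to that of ID1. The other 4 target genes tested (MSX1, MSX2, HEY1, GATA2) did not pass. HEY1, a transcriptional repressor, differed by 0.58 on the log2 scale with an adjusted p of 0.209 in limma, by 0.92 without iEV replicate 1 (adjusted p = 0.00388), and by 0.38 to 0.61 when another library was left out. GATA2, a transcription factor, differed by 0.67 on the log2 scale with an adjusted p of 0.0855 in limma, and by 0.88 without iEV replicate 1 (adjusted p = 0.0337).

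Among the E proteins that ID proteins bind, TCF4 was lower, at 3.50, 3.08 and 2.80 FPKM in the iEV libraries against 1.43, 1.15 and 1.12 FPKM in the iGLI2 libraries (log2 change -0.88, SE 0.10, limma adjusted p = 0.00302). TCF3, the most abundant of the 3, averaged 15.4 ± 0.757 FPKM (SD, n = 3) in iEV against 17.98 ± 1.64 FPKM (SD, n = 3) in iGLI2 cells, with an adjusted p of 0.131 in limma, and TCF12 had an adjusted p of 0.312.

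**Figure D4:**
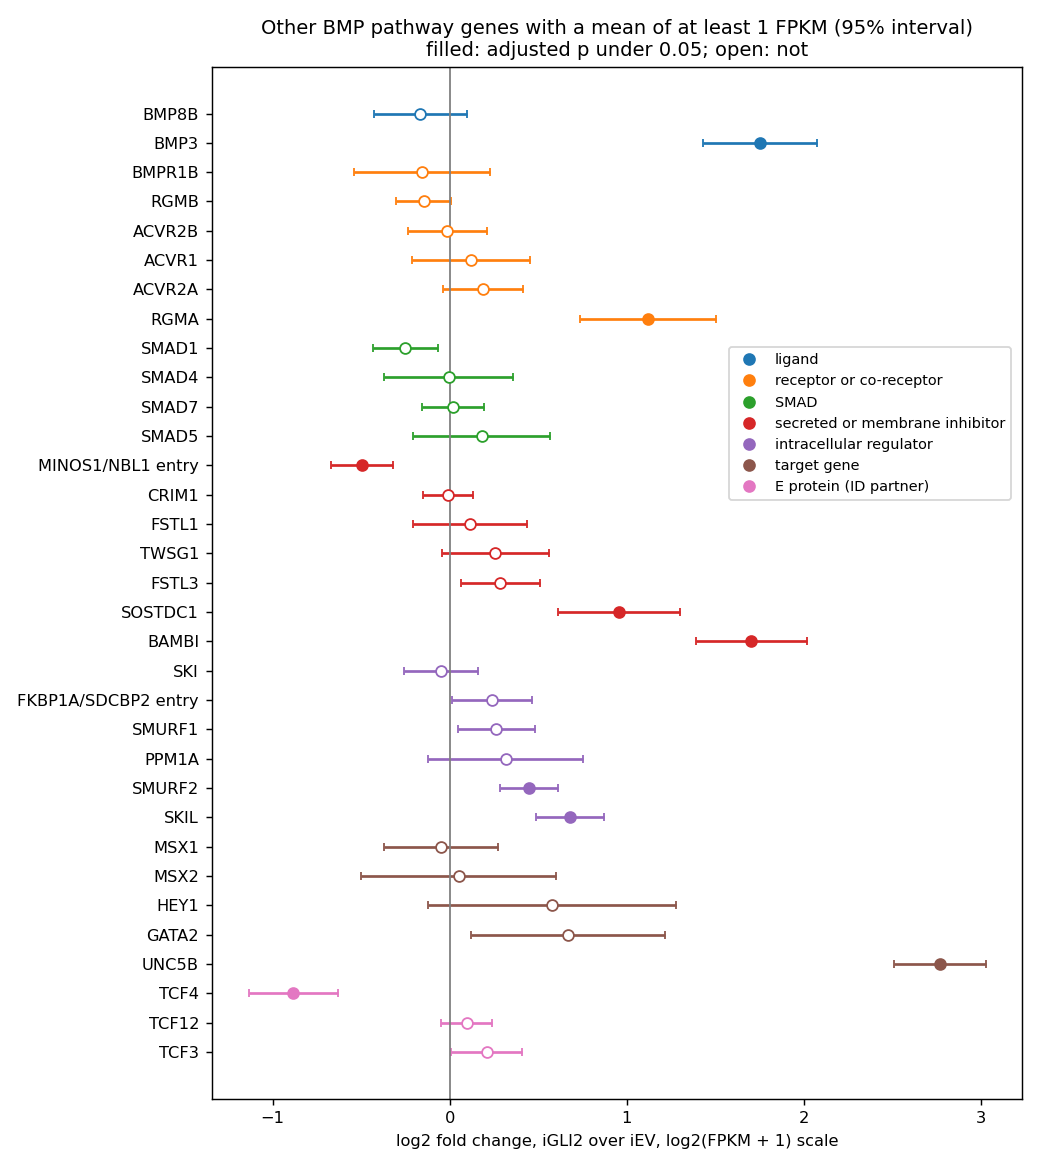
Fitted log2 fold change of iGLI2 over iEV (horizontal axis, log2(FPKM + 1) scale) with 95% intervals for the 33 other BMP pathway genes tested, coloured by role and filled where the adjusted p was under 0.05. BMP3, RGMA, SOSTDC1, BAMBI, SMURF2, SKIL and UNC5B are filled to the right of 0, and TCF4 and the MINOS1/NBL1 entry to the left.

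The 29 remaining pathway genes were below the minimum, and 6 of them were listed at 0 in every library, which was not read as absence. Without the minimum 5 of them were called, BMP6, FST and SMAD9 as higher and ACVRL1 and BMP5 as lower. In that fit 3017 of the 20035 genes with a value above 0 in some library were called. ACVRL1, a type I receptor, was 0.283, 0.477 and 0.391 FPKM in the iEV libraries against 0.138, 0.171 and 0.111 FPKM in the iGLI2 libraries. The ligand BMP5 was 0.177, 0.231 and 0.202 FPKM in the iEV libraries against 0.0990, 0.0285 and 0.0457 FPKM in the iGLI2 libraries. Both genes lay at levels where the reads behind them are unknown. SMAD9, which passes on BMP signals like SMAD1 and SMAD5, read 0.161, 0.108 and 0.0639 FPKM in the iEV libraries against 0.449, 0.523 and 0.447 FPKM in the iGLI2 libraries. FST, a secreted antagonist of activins and BMPs, was 0.0216, 0 and 0.0504 FPKM in iEV and 0.286, 0.306 and 0.250 FPKM in iGLI2 replicates 1, 2 and 3. BMP6 did not exceed 0.101 FPKM in any library. These 5 were named after their values were seen.

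The GLI2 level of iGLI2 replicate 1 was 0.470 of the mean of replicates 2 and 3. For 4 of the 8 members tested (BMP2, BMP4, BMP7, ID2) this library was the iGLI2 library nearest to the iEV mean, as it was for 36.3% of all genes tested and 46.0% of the genes called. Whether the GLI2 level had a part in this was not tested.

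**Figure D5:**
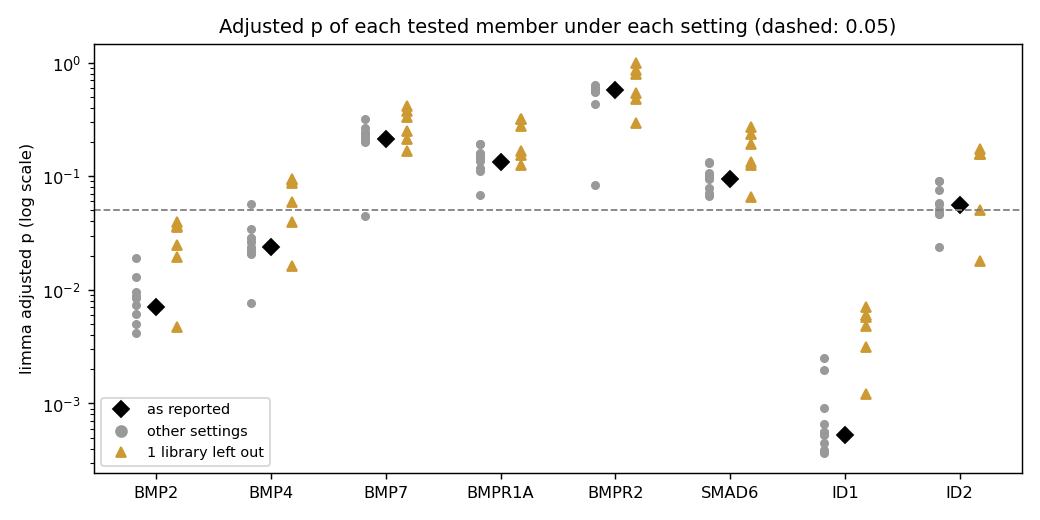
Adjusted p of each tested member in limma (vertical axis, log scale) as reported (diamonds), under the other settings (circles) and with 1 library left out (triangles), with the threshold of 0.05 dashed. ID1 and BMP2 stay under the line in every setting drawn, BMP4 and ID2 have points on both sides, and BMP7 has 1 point below it.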

How the data were processed

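RNA-seq was available for 6 libraries of YAPC cells, 3 iEV and 3 iGLI2, grouped and numbered by the sample labels, in 1 deposited gene table. The authors used Trimmomatic for trimming, tophat2 for alignment (hg19) and cuffdiff, version 2.1.1 in the submitters' processing notes. The table names no unit. The deposited values were read as FPKM from their form and totals. The annotation, the scaling between libraries and the treatment of reads that match several places are not given in the sources used here. A total of 0 columns were left without a sample.

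Of 27024 entries, 1252 outside the primary chromosomes and 330 of a name with a higher mean elsewhere were left out, and starts were moved by 1 to count from 1. The 12493 genes averaging 1 FPKM or more were fitted on the log2(FPKM + 1) scale in R 4.3.3 by limma 3.58.1, two-sided, condition as the only term, with an intensity trend, Benjamini-Hochberg adjustment and a threshold of 0.05. The fit was tested on simulated data with independent noise. Of 200 planted changes 175 were recovered (78 of 2-fold and 97 of 4-fold size), with 8 false calls. Changes were planted only in genes above a set level. The simulation therefore cannot describe low genes or libraries that were not independent. Fold changes on the log2(FPKM + 1) scale understate the change of low genes. Depth per library is unknown, so no counting interval is given. Exact permutation tests used scipy 1.17.1. Transcript starts came from GENCODE release 44 lifted to GRCh37, the build of the files, and figures from matplotlib 3.10.9.

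The genes named are the 10 members, GLI2, the pathway genes called and the gene of the highest mean in each role. Other pathway genes with values or calls in the text, such as BMP8B, SMAD1, TCF12, HEY1 and GATA2, were named after their values were seen. The members and lists were chosen with earlier results of these data known. The alternatives were other scalings, pseudocounts, filters, variance moderation, replicate blocks and leaving out each library.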

Additional observations from a re-analysis of the deposited data

How the results depend on the processing

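ID1 and BMP2 kept their direction and call in every alternative that could test them, and no tested member, called pathway gene or highest gene of a role changed direction in any alternative that could test it. BMP2, RGMA, SOSTDC1 and TCF4 could not be tested at a mean of at least 5 FPKM. BMP4 lost its call in 5 of 16 alternatives and ID2 gained one in 5 of 16, as given above, and SMAD6, BMPR1A and BMPR2 passed in none. Members called as higher were 0 as reported and 1 (ID2) with upper quartile scaling, quantile normalization, rescaling without small RNA genes or robust moderation. Leaving out 1 library gave 0 to 1, the 1 being ID2 without iEV replicate 1. The cause was not tested.

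Over all genes, 2742 were called, 1095 at an adjusted p under 0.01 (540 higher, 555 lower). Calls of higher genes numbered 824 with a minimum of 5 FPKM, where fewer genes were tested, and 1933 with small RNA genes left out and libraries rescaled. Without 1 library the calls ranged from 1223 (without iEV replicate 2) to 3753 (without iGLI2 replicate 1), the higher from 608 to 1855 and the lower from 615 to 1898. The count also fell by over 1.5 times without iEV replicate 3 (1303), iGLI2 replicate 2 (1357) or iGLI2 replicate 3 (1510). Of the other pathway genes, 9 were called, 14 with no minimum (4 lower), 1 lower with a minimum of 5 FPKM, and 11 higher after the rescaling. TCF3 and SMURF1 passed after the rescaling and without iGLI2 replicate 1, FSTL3 and GATA2 after the rescaling, and HEY1, GATA2 and SMAD1 without iEV replicate 1. FSTL3 also passed in limma without the trend (adjusted p = 0.0406), where 10 of the other pathway genes were called.

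Deviations of same-numbered libraries correlated at 0.204, 0.092 and 0.028 for numbers 1, 2 and 3. For iEV replicates 1 and 3 this was the best match, while iEV replicate 2 correlated best with iGLI2 replicate 3 (0.117). These correlations cannot decide whether the numbers mark pairs. No label gives pairs, so the numbers were not taken as such. With the number as a replicate block 3928 genes were called, 4 of them members, since BMP7 passed (adjusted p = 0.0447 in limma), and 13 of the other pathway genes, 11 of them higher, with TWSG1, FKBP1A/SDCBP2, SMURF1 and PPM1A added. With the digit of the sample code as the block, 2084 genes, 3 members and 9 other pathway genes were called.

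Read depth is unknown, so values near 0, such as those of ID3 and ID4, carry no counting error here.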
